A study of Mus musculus with 11 samples.

Results

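The genes described here move iron and copper across membranes, oxidise, store or sense these metals, and they were read in mRNA that was bound to the ribosomes of mouse hippocampal astrocytes. The list held 10 genes (Heph, Cp, Tfrc, Trf, Slc40a1, Slc11a2, Fth1, Ireb2, Slc31a1 and Atp7a). It was chosen by function around Heph, whose level had already been seen to differ between fasted and ketogenic arrays, so that difference of Heph is given below as a description with no test. Of the 10 genes, 9 had a probe set that the array annotation pairs with that gene alone, out of 20259 genes measured in this way. The only set for Cp, which encodes the plasma ferroxidase ceruloplasmin, is also paired with Rex2, so Cp has no value here. Slc31a1 had a second set, and the set with the higher mean over the 11 arrays was used.

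Every mouse carried a Ribo-Tag allele, an epitope-tagged ribosomal protein that Cre recombinase switches on, together with Aldh1l1-Cre, which is active in astrocytes. Animals were 9 weeks old unless otherwise noted, and no strain or sex was given. The 4 fed samples came from mice on normal chow for 4 weeks, the 4 ketogenic samples from mice on a high-fat, low-carbohydrate ketogenic diet for 4 weeks, and the 3 fasted samples from mice deprived of food. The treatment notes state a fast of 18 h, and the labels of the fasted samples state 24 h. The labels and the methods name hippocampus as the tissue, while the paper's results describe the array data as from forebrain astrocytes. Each sample was a separate biological sample on 1 array, and whether animals were pooled for a sample was not given.

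Iron enters most cells bound to transferrin through the transferrin receptor, leaves the endosome through a divalent metal transporter, is stored in ferritin and leaves the cell through ferroportin. Ferroportin releases ferrous iron, which a copper-dependent ferroxidase oxidises so that transferrin can bind it, and this is a point where copper supply and iron export meet. Astrocyte endfeet cover the brain capillaries through which iron enters the brain, and astrocytes are known for a membrane-anchored form of ceruloplasmin. Iron regulatory proteins bind mRNAs of several of these genes and adjust their stability or translation to the iron supply.

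All values are probe set levels after robust multi-array averaging (RMA) on a log2 scale, so a difference of 1 is a doubling, and levels of different genes are not compared with each other. Genes of odorant receptors, most of which are silent in brain, show how a gene without expression reads. The 95th percentile of 862 such genes was 3.96. The mean level of Slc40a1 over the 11 arrays (3.28) lay below this bound and that of Atp7a (4.05) lay just above it. The other 7 genes averaged 4.63 to 7.18. Heph was the lowest of these 7, and its mean on the ketogenic arrays, 4.11, also lay just above the bound. Marker genes of astrocytes averaged 7.98, 7.90 and 7.46 on the fed, fasted and ketogenic arrays, with all 20 measured markers above the odorant receptor bound. Neuron markers averaged 8.0, 8.09 and 8.14 and oligodendrocyte markers 7.67, 7.28 and 7.43, so RNA of other cells was present in these pull-downs. In such pooled RNA, fewer cells of a type and less RNA per cell cannot be told apart. Fed array 2 and fasted array 2 stood apart, with limma array weights of 0.251 and 0.458 against 1.03 to 1.43 for the others, and values of the listed genes that rest on them are also given without them.

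Upstream sequence is shown for the copper importer and the copper exporter of the list, Slc31a1 and Atp7a, because both had their highest value on the same array (below). The RefSeq table of the GRCm38.p6 assembly held such windows for 5 of the 9 measured genes. Each line gives the 250 bases before the annotated transcript start on the plus strand, 5′ to 3′. Capitals mark ACGTG, a form of the core of the hypoxia response element. Only these letters were searched, on both strands, so other forms of that core are neither marked nor counted. Slc31a1 lies at chr4:62360451-62360700 and Atp7a at chrX:106026974-106027223.
Slc31a1: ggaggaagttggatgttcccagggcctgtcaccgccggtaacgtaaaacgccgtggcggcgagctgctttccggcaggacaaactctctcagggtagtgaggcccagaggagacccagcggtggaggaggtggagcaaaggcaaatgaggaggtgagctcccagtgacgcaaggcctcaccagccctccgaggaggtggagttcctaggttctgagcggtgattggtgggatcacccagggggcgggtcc
Atp7a: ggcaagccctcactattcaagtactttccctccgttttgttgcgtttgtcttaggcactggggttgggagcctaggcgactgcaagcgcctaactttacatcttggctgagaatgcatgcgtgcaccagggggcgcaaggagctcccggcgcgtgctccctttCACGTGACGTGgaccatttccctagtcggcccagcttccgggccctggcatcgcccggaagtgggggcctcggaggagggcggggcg
The Atp7a window held 3 matches, which begin 87, 86 and 81 bases before the start. The first, on the minus strand, overlaps the second, and the third follows them. The Slc31a1 window held none, and of the other 3 genes with windows Tfrc held 1 match, 228 bases before the later of its annotated starts. Of all 32851 windows in the table, 16.6% held a match, and a match is a description of the letters, not of a site in use.

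**Figure D1:**
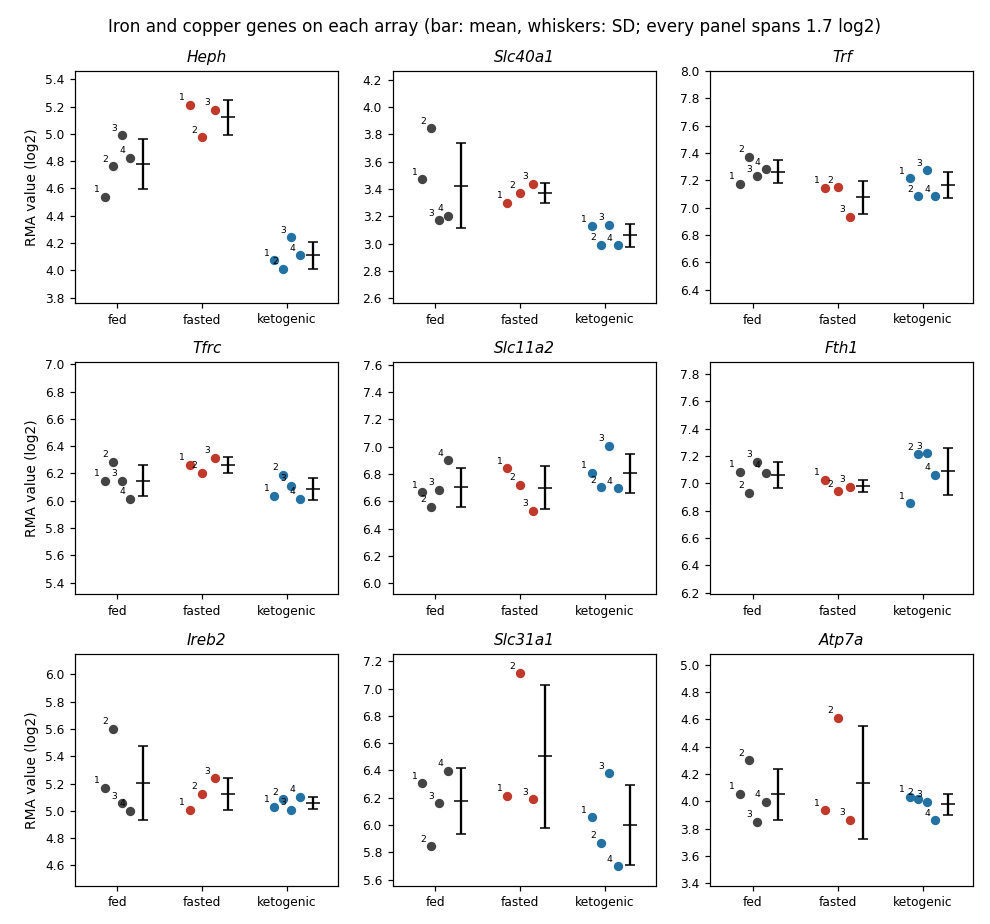
RMA values (log2, vertical axis) of the 9 measured iron and copper genes on the 4 fed, 3 fasted and 4 ketogenic arrays, with array numbers beside the points, the group mean as a bar and its SD as whiskers. In the Heph panel the ketogenic arrays lie at 4.01 to 4.24, below every fed and fasted array, and fasted array 2 stands alone at the top of the Slc31a1 and Atp7a panels.

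Heph encodes hephaestin, a membrane-bound multicopper ferroxidase that works beside ferroportin. Its probe set (7012696) read 4.54, 4.76, 4.99 and 4.83 on the fed arrays. It read 5.21, 4.98 and 5.18 on the fasted arrays and 4.08, 4.01, 4.24 and 4.11 on the ketogenic arrays. All 4 ketogenic arrays were thus the lowest of the 11, while the fasted and fed arrays met at fasted array 2 and fed array 3. The ketogenic values lie little above the odorant receptor bound of 3.96, and the effect of this on the differences of Heph was not tested.

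The group means of Heph were 4.78 ± 0.19 for fed (SD, n = 4), 5.12 ± 0.13 for fasted (SD, n = 3) and 4.11 ± 0.10 for ketogenic (SD, n = 4). The fasted mean was 1.01 above the ketogenic mean (SE 0.11), which is a 2.02-fold difference. This is the contrast that brought Heph onto the list. With each array left out in turn the difference lay between 0.97 and 1.09, which describes the same values that chose Heph.

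On the ketogenic arrays Heph fell short of its fed level, with a log2 fold change of -0.67 (SE 0.10, 95% confidence interval -0.89 to -0.45), a 1.59-fold difference. With limma and Benjamini-Hochberg adjustment over all 20259 genes, its adjusted p was 0.0196. The ketogenic arrays of this comparison are those of the contrast that chose Heph, so it is no independent test. Without fed array 3, fed array 4 or ketogenic array 1, 2 or 4, the adjusted p of Heph rose to between 0.0537 and 0.0750. Calls over all 20259 genes fell in the same fits, from 179 to 48 and 49 without fed array 3 or 4. Without ketogenic array 1, 2 or 4, only 2, 1 and 2 genes were called. The log2 fold change of Heph stayed between -0.75 and -0.60 over all 11 fits that left out 1 array. The fasted mean was above the fed mean by 0.34 (SE 0.11), which did not pass the threshold over all genes (limma, adjusted p = 0.607).

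Astrocyte markers moved in the same comparisons. All 20 had lower means in ketogenic than in fed samples, with a median log2 fold change of -0.52 and 10 past the threshold. All 20 were higher on the fasted than on the ketogenic arrays, with a median of 0.42 and 5 past the threshold. The part of this shift in the Heph values was not tested, but Heph was also set against the mean of the 20 markers on the same array.

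Taken relative to that mean, Heph stood at -3.36, -3.23, -3.03 and -3.17 on the fed arrays. It stood at -2.77, -2.78 and -2.78 on the fasted arrays and at -3.30, -3.45, -3.37 and -3.28 on the ketogenic arrays. All fasted arrays were thus above all fed and ketogenic arrays, whereas fed and ketogenic arrays overlapped. The fasted arrays are among those that chose Heph, so this is a description. Between fasted and fed, 0 of 20259 genes passed the threshold on this scale in limma, so Heph did not pass. How many of all genes had groups that did not overlap on this scale was not counted. On this scale the fasted minus ketogenic difference was 0.57, and the ketogenic minus fed difference was -0.15 (limma, adjusted p = 0.139).

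**Figure D2:**
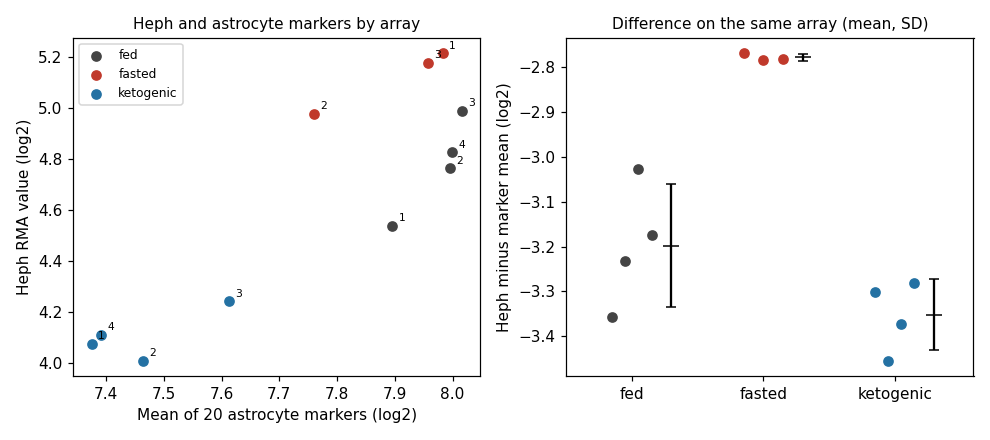
Left, Heph level against the mean of 20 astrocyte markers on each array (both log2), coloured by diet and numbered by array. Right, Heph minus the marker mean on the same array (log2), with group mean and SD. The ketogenic arrays lie low on both axes at left, and at right the 3 fasted arrays lie near -2.78 while fed and ketogenic arrays overlap.

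Slc40a1 encodes ferroportin, the iron exporter beside which hephaestin works. It read 3.47, 3.84, 3.17 and 3.20 on the fed arrays, 3.30, 3.37 and 3.44 on the fasted arrays and 3.13, 2.99, 3.14 and 2.99 on the ketogenic arrays. As for Heph, the ketogenic arrays were the 4 lowest, but all these levels lie below the odorant receptor bound.

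The ketogenic minus fed log2 fold change of Slc40a1 was -0.36 (SE 0.13), with an unadjusted p of 0.0194 and an adjusted p of 0.255 over all genes in limma. Without fed array 2, its highest, the change was -0.22. Between fasted and ketogenic arrays the difference was 0.31 (SE 0.14, limma adjusted p = 0.475). Set against the astrocyte marker mean, both differences changed sign, to 0.15 and -0.13.

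The genes of iron uptake varied less. Tfrc, the receptor that takes up transferrin-bound iron, read 6.15, 6.29, 6.15 and 6.01 on the fed arrays, 6.26, 6.21 and 6.32 on the fasted arrays and 6.04, 6.19, 6.11 and 6.01 on the ketogenic arrays. Every fasted array was above every ketogenic array, narrowly at fasted array 2 and ketogenic array 2. The fasted minus ketogenic difference was 0.18 (SE 0.08, limma adjusted p = 0.479), and it turned to -0.26 relative to the astrocyte marker mean. Its differences from fed were 0.11 for fasted and -0.06 for ketogenic.

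Trf encodes transferrin, the iron carrier, which in brain is made chiefly by oligodendrocytes and the choroid plexus. It read 7.18, 7.37, 7.23 and 7.28 on the fed arrays, 7.15, 7.15 and 6.93 on the fasted arrays and 7.22, 7.08, 7.27 and 7.08 on the ketogenic arrays. Every fasted array was below every fed array, and the ketogenic arrays lay across both. The fasted minus fed log2 fold change was -0.19 (SE 0.09), with a limma p of 0.0520 before and 0.704 after adjustment. Oligodendrocyte markers were lower on the fasted arrays as well, with a negative difference for 13 of 14, a median of -0.35 and none past the threshold. The summed level of these markers, as their mean, ran from 7.07 to 7.49 on the fasted and from 7.52 to 7.81 on the fed arrays, and their part in the Trf values was not tested.

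Slc11a2 encodes DMT1, which carries ferrous iron out of the endosome. It ranged from 6.56 to 6.90 on fed, from 6.53 to 6.84 on fasted and from 6.70 to 7.01 on ketogenic arrays. The 3 ranges overlapped, and the differences from fed were -0.01 for fasted and 0.10 for ketogenic. Their 95% confidence intervals, -0.25 to 0.24 and -0.13 to 0.33, leave room for changes of up to 1.26-fold.

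Fth1 encodes the heavy chain of ferritin, the iron store, which is itself a ferroxidase. It ranged from 6.93 to 7.16 on fed, from 6.94 to 7.02 on fasted and from 6.86 to 7.22 on ketogenic arrays. Its differences from fed were -0.08 (95% confidence interval -0.30 to 0.13) for fasted and 0.03 (-0.17 to 0.23) for ketogenic. Processed copies of Fth1 in the mouse genome may share its probes, so its level is uncertain. Ireb2 encodes iron regulatory protein 2, which binds ferritin and transferrin receptor mRNAs when iron is scarce. Its fed arrays read 5.17, 5.60, 5.06 and 5.0, with array 2 well above the rest, and the fasted and ketogenic arrays lay between 5.01 and 5.24. The ketogenic minus fed difference of -0.15 became -0.02 without fed array 2.

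Slc31a1 encodes CTR1, the high-affinity copper importer. It read 6.31, 5.85, 6.16 and 6.40 on the fed arrays, 6.22, 7.11 and 6.19 on the fasted arrays and 6.06, 5.87, 6.38 and 5.70 on the ketogenic arrays. Fasted array 2 was the highest of the 11 by a wide margin, and the other fasted arrays lay within the fed range. The second probe set of Slc31a1 (6927967) read 7.0 on the same array and 5.93 and 6.16 on the other fasted arrays.

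The fasted minus fed difference of Slc31a1, 0.33 (SE 0.24, limma adjusted p = 0.802), was 0.03 when fasted array 2 was left out and -0.08 when fed array 2 was left out as well. The fasted minus ketogenic difference of 0.50 (adjusted p = 0.479) was 0.20 without fasted array 2. Atp7a encodes the copper-exporting ATPase that also loads copper enzymes such as hephaestin in the secretory pathway. It read 4.05, 4.30, 3.85 and 4.0 on the fed arrays, 3.93, 4.61 and 3.86 on the fasted arrays and 4.03, 4.02, 4.0 and 3.86 on the ketogenic arrays.

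Fasted array 2 was again the highest, followed by fed array 2. The fasted minus fed difference of Atp7a, 0.09, was -0.15 without fasted array 2. That array also had the highest means of the endothelial and mural markers (5.91, others 4.92 to 5.88) and of the ependymal, choroid plexus and meningeal markers (5.94, others 4.86 to 5.61). The part of such cells in the Slc31a1 and Atp7a values was not tested.

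**Figure D3:**
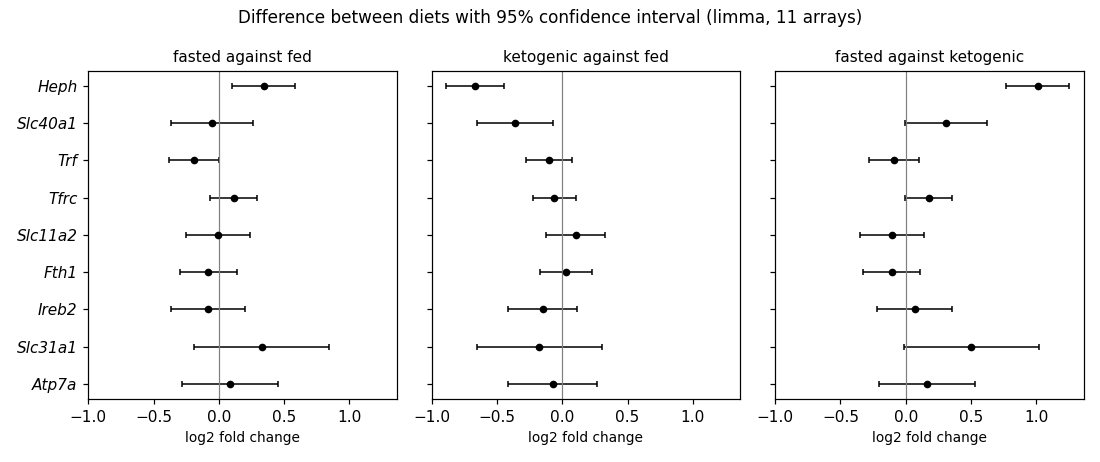
Log2 fold change (horizontal axis) of the 9 measured iron and copper genes in the 3 comparisons, as points with 95% confidence intervals from limma fitted to all 11 arrays. The interval of Heph runs from -0.89 to -0.45 in the ketogenic against fed panel and from 0.77 to 1.26 in the fasted against ketogenic panel. Both panels use arrays of the contrast that chose Heph, so neither interval is an independent test. Most other intervals span 0.

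Over the 9 measured genes, no difference passed the threshold between fasted and fed arrays, where the share over all genes was 0%. At an unadjusted p under 0.05 there was 1 of 9, Heph, against 7.07% of all genes, and 1 of 9, Trf, had groups that did not overlap, against 6.43%. Between ketogenic and fed arrays, 1 of 9 passed (Heph, lower) against 0.884% of all genes, and no other listed gene did. Heph was chosen through its fasted and ketogenic arrays, so counts against fed that include it are a description and nothing is read from them. At an unadjusted p under 0.05 there were 2 of 9 (Heph and Slc40a1, both lower) against 13.9%, and 2 of 9 did not overlap against 10.7%.

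The fasted against ketogenic contrast chose Heph, so its counts are given as a description and nothing is read from them. Besides Heph, none of the other 8 genes was past the threshold (0.281% of all genes) or at an unadjusted p under 0.05 (10.6% of all genes). Groups did not overlap for 3 of 9 (Heph, Slc40a1 and Tfrc, all higher), against 13.9%. The median log2 fold changes of the 9 genes were -0.01, -0.10 and 0.16 in the 3 comparisons, beside -0.02, 0.01 and -0.04 over all genes. Comparisons with fed share the fed arrays, and those with ketogenic share the ketogenic arrays.

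The wider set of iron and copper genes held 89 measured genes in 7 lists by function. None passed the threshold between fasted and fed arrays (0% of all genes) or between fasted and ketogenic arrays (0.281% of all genes). Between ketogenic and fed arrays 1 of the 89 passed, Alas2, against 0.884% of all genes. This is close to the share over all genes, so nothing is read from the count. At an unadjusted p under 0.05, 1 was higher and 5 lower on fasted than on fed arrays (7.07% of all genes in either direction). There were 5 higher and 8 lower in ketogenic than in fed samples (13.9% of all genes), and 8 higher and 7 lower on fasted than on ketogenic arrays (10.6% of all genes). The median log2 fold changes were -0.03, 0.00 and -0.03, close to those of all genes.

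Alas2 encodes the 5-aminolevulinate synthase of red cell precursors, which makes the first intermediate of haem. It read 4.79, 5.09, 4.37 and 4.70 on the fed arrays, 4.51, 4.56 and 4.27 on the fasted arrays and 4.02, 4.07, 4.13 and 3.83 on the ketogenic arrays. The ketogenic arrays were the 4 lowest, and they lay around the odorant receptor bound of 3.96. The ketogenic minus fed log2 fold change was -0.73 (SE 0.14, limma adjusted p = 0.0407), a 1.65-fold difference. The call held in 1 of the 11 fits that each left out 1 array, where the adjusted p ran from 0.0402 to 0.139, and the change was -0.21 relative to the astrocyte marker mean. Measured red cell markers, 3 genes, averaged 4.10 on fed and 4.13 on ketogenic arrays.

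Among 10 measured regulators of iron, Epas1, Aco1 and Neo1 had, like Heph, their lowest values on the ketogenic arrays. These were the 3 regulators whose ketogenic and fed arrays did not overlap, all lower, against 10.7% of all genes in either direction. Between fasted and ketogenic arrays 4 of the 10 did not overlap, all higher, against 13.9%. Neo1 differed by -0.22 between ketogenic and fed arrays (SE 0.06, limma adjusted p = 0.134). Epas1 encodes HIF-2α, a hypoxia-inducible factor whose mRNA carries an iron-responsive element. It ranged from 7.48 to 7.70 on fed, from 7.46 to 7.60 on fasted and from 6.91 to 7.34 on ketogenic arrays, with every ketogenic array below the others. Its ketogenic minus fed difference was -0.47 (SE 0.10, limma adjusted p = 0.0528), which passed the threshold under some alternatives, and its fasted minus ketogenic difference 0.42 (adjusted p = 0.150). Aco1 encodes iron regulatory protein 1, which is a cytosolic aconitase when it holds an iron-sulphur cluster. It ranged from 6.01 to 6.37 on fed, from 5.95 to 6.20 on fasted and from 5.78 to 5.86 on ketogenic arrays, and its ketogenic minus fed difference was -0.34 (SE 0.09, adjusted p = 0.114). Relative to the astrocyte marker mean, the ketogenic minus fed differences of Epas1 and Aco1 were 0.04 and 0.18.

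Steap2, a metalloreductase that reduces ferric iron and cupric copper, varied widely between arrays of each diet. It read 6.39, 4.74, 6.38 and 6.67 on the fed arrays, 6.44, 7.77 and 5.67 on the fasted arrays and 5.31, 4.73, 6.90 and 4.96 on the ketogenic arrays. As for the copper importer, fasted array 2 was the highest and fed array 2 was the lowest fed array. The fasted minus ketogenic difference of 1.15 had an SE of 0.63 and a limma adjusted p of 0.559, and it was 0.58 without fasted array 2. The fasted minus fed difference of 0.58 became -0.42 when both of these arrays were left out.

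Mtf1, the metal-responsive transcription factor of metallothionein genes, read 7.88, 8.04, 7.96 and 7.66 on the fed arrays, 7.11, 6.99 and 7.56 on the fasted arrays and 7.62, 8.03, 7.56 and 8.09 on the ketogenic arrays. The fasted arrays were the 3 lowest. The fasted minus fed log2 fold change was -0.66 (SE 0.17) with a limma p of 0.00250 before and 0.452 after adjustment. Between fasted and ketogenic arrays the change was -0.61 (adjusted p = 0.221). Moxd1, a copper-dependent monooxygenase homologue, ranged from 5.16 to 5.32 on ketogenic and from 4.41 to 4.87 on fed arrays, a difference of 0.55 (SE 0.13, adjusted p = 0.0767). Lrp1, the endocytic receptor that takes up haem bound to hemopexin, was 0.43 higher on fasted than on ketogenic arrays (adjusted p = 0.0826), and this difference was -0.01 relative to the astrocyte marker mean.

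Of the iron chaperones, Glrx3 had the largest difference between ketogenic and fed arrays (0.34) and between fasted and ketogenic arrays (-0.43), and Bola2 between fasted and fed arrays (-0.33, which was -0.12 without fasted array 2). Of the mitochondrial genes, the iron importer Slc25a37 (mitoferrin-1) differed by -0.24 between fasted and fed and by -0.41 between fasted and ketogenic arrays. The iron-sulphur scaffold gene Iscu differed by 0.21 between ketogenic and fed arrays, and by 0.11 without fed array 2. Of the copper genes, Pam, an enzyme of peptide amidation, differed by 0.35 between fasted and fed arrays at a mean level of 2.83, within the odorant receptor range, and by 0.07 without fasted array 3. Sco1, a chaperone of cytochrome oxidase, differed by 0.12 between ketogenic and fed arrays, with 0.02 to 0.28 over the fits that left out 1 array. None of these passed the threshold over all genes in limma (adjusted p from 0.218 to 0.879). Between fasted and fed arrays, Alas2 led the haem genes at -0.29 (adjusted p = 0.722) and Aco1 the regulators at -0.10 (adjusted p = 0.850), and without fed array 2 these were -0.18 and -0.03.

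**Figure D4:**
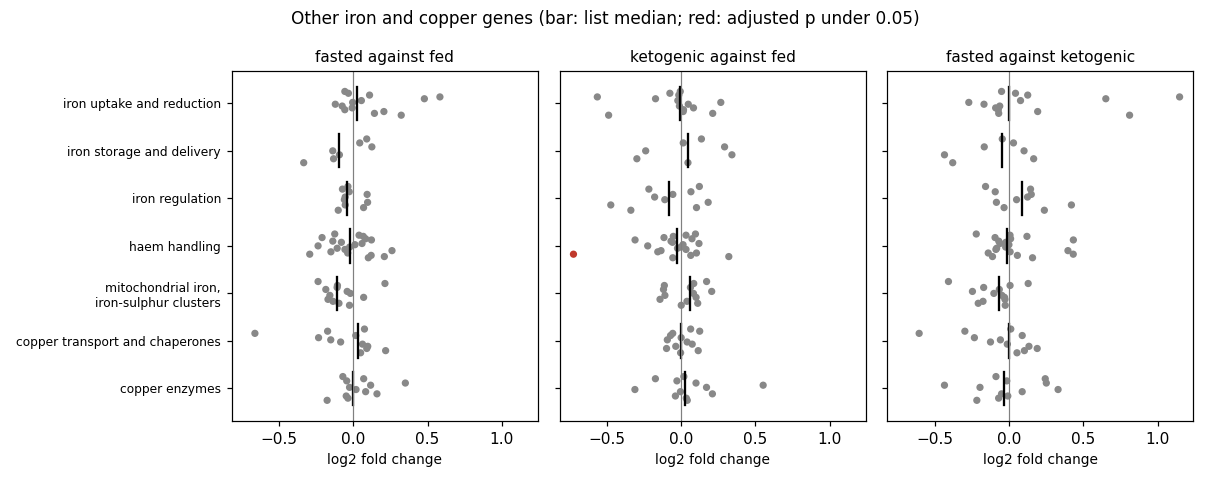
Log2 fold change (horizontal axis) of 89 other iron and copper genes in 7 lists (rows) and 3 comparisons (panels), 1 point a gene, with each list's median as a bar and genes at an adjusted p under 0.05 in red. The medians lie near 0, and the red point is Alas2 at -0.73.

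The 5 genes whose values followed those of Heph most closely over the 11 arrays were Smox, Aass, Timp4, Etnppl and Frmpd1, with Pearson correlations of 0.983, 0.980, 0.977, 0.973 and 0.968. These are descriptions: the 11 points share their diets and pull-downs, and the mean of the astrocyte markers had a correlation with Heph of 0.88. Smox encodes spermine oxidase, and its means were 5.47 ± 0.08 on fed, 5.64 ± 0.04 on fasted and 5.24 ± 0.01 on ketogenic arrays (SD, n = 4, 3 and 4). Aass, an enzyme of lysine breakdown, averaged 4.69, 4.95 and 4.14, and Timp4, an inhibitor of matrix metalloproteinases, averaged 7.69, 7.84 and 7.20. Etnppl, ethanolamine phosphate phospholyase, averaged 6.40, 7.17 and 4.83, and Frmpd1 averaged 6.17, 6.35 and 5.57. All 5 had the order fasted, fed, ketogenic from high to low. They were picked for their likeness to Heph, whose means have this order, so the shared order is no separate result. Of the other 8 measured genes of the list, Tfrc had the highest correlation with Heph, 0.60, followed by Slc40a1 with 0.54. Without fed array 2 and fasted array 2 these were 0.59 and 0.68, so their order changed. The rest of the 8 ran from -0.26 (Slc11a2) to 0.44 (Slc31a1) over the 11 arrays. Tfrc and Slc40a1 ranked 924 and 1331 over all genes, and both lay below the astrocyte marker mean.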

How the data were processed

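mRNA from ribosome pull-downs was amplified (NuGEN Pico WTA v2), biotin-labelled and read on mouse exon arrays from Affymetrix. The authors deposited values summarised by RMA in Partek with build mm9 (per the labels, which give no versions), read here as log2, the base RMA gives, since no source used here states it. Probe sets were named from the platform annotation, with 25539 paired with 1 symbol, 2300 with several and 87991 with none. A gene took its set with the highest mean. Group means were fitted to all 11 arrays in limma 3.58.1 (R 4.3.3) with Benjamini-Hochberg adjustment over 20259 genes at a threshold of 0.05, after the script had been tested on simulated data. Precision is limited by the number of arrays. The p-values set group differences against the spread between samples of a group, and whether samples were single animals or pools was not given.

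The members and gene lists were chosen with earlier results of these data known. Named were the members, other list genes past the threshold, the largest change per list and comparison, and the 5 genes most correlated with Heph. Epas1 and Aco1 were followed in every comparison as regulators, and Neo1 was named beside them because its arrays had the same order. Alternatives were array weights, 2 other scalings, the median over a gene's sets, a filter at the odorant receptor bound, the methods' t-test, fits of 2 groups, a replicate block and left-out arrays. Upstream sequences came from RefSeq (GRCm38.p6).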

Additional observations from a re-analysis of the deposited data

How the results depend on the processing

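Centring each array on its astrocyte marker mean moved the median of all genes by 0.52 (ketogenic against fed) and -0.44 (fasted against ketogenic), so changes under it are relative to that shift. It put 6 of the 9 listed and 77 of the other 89 iron and copper genes past the threshold between ketogenic and fed, and 6 and 70 between fasted and ketogenic. Of all genes, 85.2% and 77.7% passed in these comparisons. The ketogenic minus fed change turned to 0.44 for Atp7a, 0.37 for Ireb2, 0.34 for Slc31a1, 0.15 for Slc40a1, 0.45 for Tfrc, 0.42 for Trf, 0.18 for Aco1 and 0.042 for Epas1. The fasted minus ketogenic change turned to -0.28 for Atp7a, -0.37 for Ireb2, -0.13 for Slc40a1, -0.26 for Tfrc, -0.20 for Aco1, -0.0074 for Alas2, -0.0196 for Epas1 and -0.0065 for Lrp1, and the fasted minus fed change to 0.0224 for Epas1, 0.0713 for Slc11a2 and 0.0245 for Slc40a1. Heph kept its direction in all 3 comparisons under every alternative run.

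The methods' t-test with Benjamini-Hochberg adjustment left 0 of the 9 genes past the threshold in each comparison (Heph adjusted p = 0.103 between ketogenic and fed) and 0 of the 89 between ketogenic and fed. It called 12 of all genes there, against 179 in limma, and 6 against 57 between fasted and ketogenic. Fits of 2 groups alone gave 0 of the 89 between ketogenic and fed, and array weights 4 (and 2 between fasted and ketogenic). A filter that left out genes at the odorant receptor level gave 3, and it also took out some of the 89. Of the 13218 genes it kept, 282 (2.13%) passed between ketogenic and fed. Epas1 passed between ketogenic and fed with array weights (adjusted p = 0.0302), median centring (0.0465), that filter (0.0326) and without ketogenic array 3 (0.0238). With array weights, 387 and 188 of all genes passed, and with 2 groups alone 79 and 34.

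With the replicate number as a block, 0 of the 9 and 0 of the 89 genes passed between ketogenic and fed (Heph adjusted p = 0.0575), and Slc11a2 turned to 0.0098 between fasted and fed. Of all genes, 1 and 6 passed. Deviations of same-numbered arrays correlated at -0.12 to 0.18, and those of different-numbered arrays at -0.19 to 0.12. The highest, 0.18, was between fed array 2 and fasted array 2. No clear pairing by number was seen, but these correlations cannot exclude it.

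Without fed array 2 and fasted array 2, the fasted minus fed change became -0.0681 for Atp7a, 0.0478 for Ireb2, -0.0847 for Slc31a1, 0.0878 for Slc40a1 and -0.42 for Steap2. The ketogenic minus fed change became 0.0098 for Atp7a and -0.0179 for Fth1, and the fasted minus ketogenic change of Atp7a became -0.0779. Array weights turned Fth1 to -0.0042 between ketogenic and fed, and Ireb2, Slc40a1 and Steap2 to 0.0258, 0.0700 and -0.058 between fasted and fed. The median over probe sets turned Steap2 to -0.39 there, and median centring turned Slc11a2 to 0.0169. The cause of these changes was not tested.

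With each array left out in turn, 0 to 1 of the 9 and 0 to 1 of the 89 genes passed between ketogenic and fed. In the same fits the fasted minus fed change ran from -0.15 to 0.22 for Atp7a, -0.15 to 0.0492 for Ireb2, -0.0771 to 0.0789 for Slc11a2 and -0.14 to 0.0885 for Slc40a1. The ketogenic minus fed change ran from -0.14 to 0.0098 for Atp7a and -0.0179 to 0.10 for Fth1, and the fasted minus ketogenic change of Atp7a from -0.0779 to 0.30.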
